A study of Homo sapiens with 7 samples.

Results

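The zinc finger genes described here are the protein-coding genes of human chromosome 19 whose symbol is ZNF followed by a number. They were taken from the GENCODE 44 annotation placed on hg19, in which 240 of 20162 protein-coding genes met the rule. Of these 240 genes, 237 have a transcript marked as canonical, and its transcription start site (TSS), body and last exon were used. For ZNF442, ZNF714 and ZNF43 the 5′ end of the gene stood in for that TSS and the longest coding transcript gave the last exon. Names such as ZNF585A or ZNF559-ZNF177 carry more than a number and were not included. The comparison sets were the other 1240 protein-coding genes of chromosome 19, the 236 genes with such names on other chromosomes and all protein-coding genes.

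The samples were HCT116 cells, an established human colorectal carcinoma line, crosslinked in wells of 96-well plates at 200000 cells per well and sheared for 6 min in PIXUL, an instrument that sonicates a whole plate. No treatment or genotype was compared. Chromatin was precipitated with antibodies to 5 histone modifications (H3K4m1, H3K4m3, H3K9Ac, H3K36m3 and H3K27m3 for mono- or trimethylated or acetylated lysines of histone H3), and to CTCF, a DNA-binding protein. There was 1 library per mark, so no value below has a replicate, no test between groups was possible, and genes are not replicates of each other. Each 95% Wilson interval covers counting error over genes only. The 6 peak lists held between 16112 and 55270 peaks. The sequencing depth behind them is unknown, and a gene without a peak is one where no peak was called at this depth. Of the genes that mark colon epithelium, CDX2, EPCAM, KRT8 and KRT18 had H3K4m3 at the TSS (4 of 5) and VIL1 did not. PTPRC, CD3E and ALB, markers of other cell types, had none, whereas COL1A1 had a peak with a fold enrichment of 9.21. PECAM1 was not matched in the annotation. Over all protein-coding genes 59.1% had H3K4m3 at the TSS, so these short lists say little about cell type.

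Many ZNF proteins of chromosome 19 are transcriptional repressors that read DNA through an array of C2H2 zinc fingers. Most of these carry a KRAB domain, which binds the corepressor TRIM28 and through it SETDB1, the enzyme that places H3K9 methylation on repetitive elements. The genes lie side by side in groups that arose by duplication, and the finger array is usually encoded by a single long last exon. As background to the marks, H3K4m3 and H3K9Ac are typical of active promoters, H3K4m1 of enhancers and promoter flanks, H3K36m3 of the transcribed body and 3′ end of genes, and H3K27m3 of genes kept silent by Polycomb complexes.

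Sequences of 2 promoters and 3 finger units show what these genes look like at the sequence level. The promoters are the 200 bases just before the TSS on hg19, written 5′ to 3′ along the gene, with each CG dinucleotide in capitals. ZNF544 (chr19:58740080-58740279, plus strand, 23 CG) had the highest H3K4m3 fold enrichment among the ZNF genes. ZNF667 (chr19:56988715-56988914, minus strand, 26 CG) had no deposited peak of any mark in any region, and it has the highest CpG content of the genes in that state.
ZNF544: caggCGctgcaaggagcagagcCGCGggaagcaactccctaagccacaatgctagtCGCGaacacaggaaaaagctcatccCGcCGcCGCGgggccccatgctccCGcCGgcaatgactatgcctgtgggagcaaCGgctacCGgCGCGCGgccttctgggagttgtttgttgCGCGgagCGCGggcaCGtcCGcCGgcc
ZNF667: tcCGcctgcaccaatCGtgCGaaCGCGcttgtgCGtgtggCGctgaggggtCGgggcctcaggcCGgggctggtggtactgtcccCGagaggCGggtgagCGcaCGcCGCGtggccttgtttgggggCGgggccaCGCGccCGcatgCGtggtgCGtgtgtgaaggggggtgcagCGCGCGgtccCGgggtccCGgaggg
The promoter with the strongest peak and the unmarked ZNF667 promoter hold about the same number of CG dinucleotides. Because ZNF667 was picked for its CpG content, this pair does not show how marked and unmarked promoters compare.

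A finger unit is 84 bases long, 28 codons from one linker to the next. The first unit with a linker at each end is shown for the 3 genes with the highest H3K36m3 fold enrichment over the last exon, with the 15 bases of the linker in capitals. They lie at chr19:9677207-9677290 in ZNF121, chr19:19823271-19823354 in ZNF14 and chr19:12637845-12637928 in ZNF564, each on the minus strand of hg19 and each inside the last exon.
ZNF121: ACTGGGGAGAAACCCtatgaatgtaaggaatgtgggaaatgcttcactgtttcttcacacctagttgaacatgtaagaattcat
ZNF14: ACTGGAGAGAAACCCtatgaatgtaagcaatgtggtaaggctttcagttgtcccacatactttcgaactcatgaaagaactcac
ZNF564: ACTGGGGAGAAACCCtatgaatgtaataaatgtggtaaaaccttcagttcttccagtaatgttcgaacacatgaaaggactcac
The units of ZNF14 and ZNF564 share 69 of 84 bases (82.1%), and that of ZNF121 shares 59 (70.2%) with each of the others. Likeness bears on the measurement only where it is near complete, because reads from identical stretches cannot be placed uniquely. The reads were 75 bases long and sequenced in pairs, and the pairing was not taken into account here. The share of 75-base stretches in a ZNF last exon that also occur elsewhere in hg19 had a median of 0.203% (quartiles 0 and 1.59%). It was above 10% in 10 genes, with the highest value in ZNF98 (52.2%), and 0 in 105 genes.

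At the TSS, H3K4m3 marked ZNF genes of chromosome 19 about as often as other genes. A gene was counted where a peak overlapped the 1000 bp on either side of the TSS by at least 1 bp. Of the 240 genes, 140 (58.3%, interval 52 to 64.4%) had an H3K4m3 peak past a limit of 1e-10 on the q-value and of 5 on the fold enrichment, which are the limits of the Methods for this mark. The background was 59.1% of all protein-coding genes and 57.9% of the other genes of chromosome 19. ZNF genes of other chromosomes had H3K4m3 in 192 of 236 (81.4%), with an interval (75.9 to 85.8%) that does not meet that of chromosome 19. H3K9Ac, under the same limits, was at 122 ZNF genes (50.8%, interval 44.5 to 57.1%) against a background of 58.5%, and on the other chromosomes at 78.8% of ZNF genes.

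**Figure D1:**
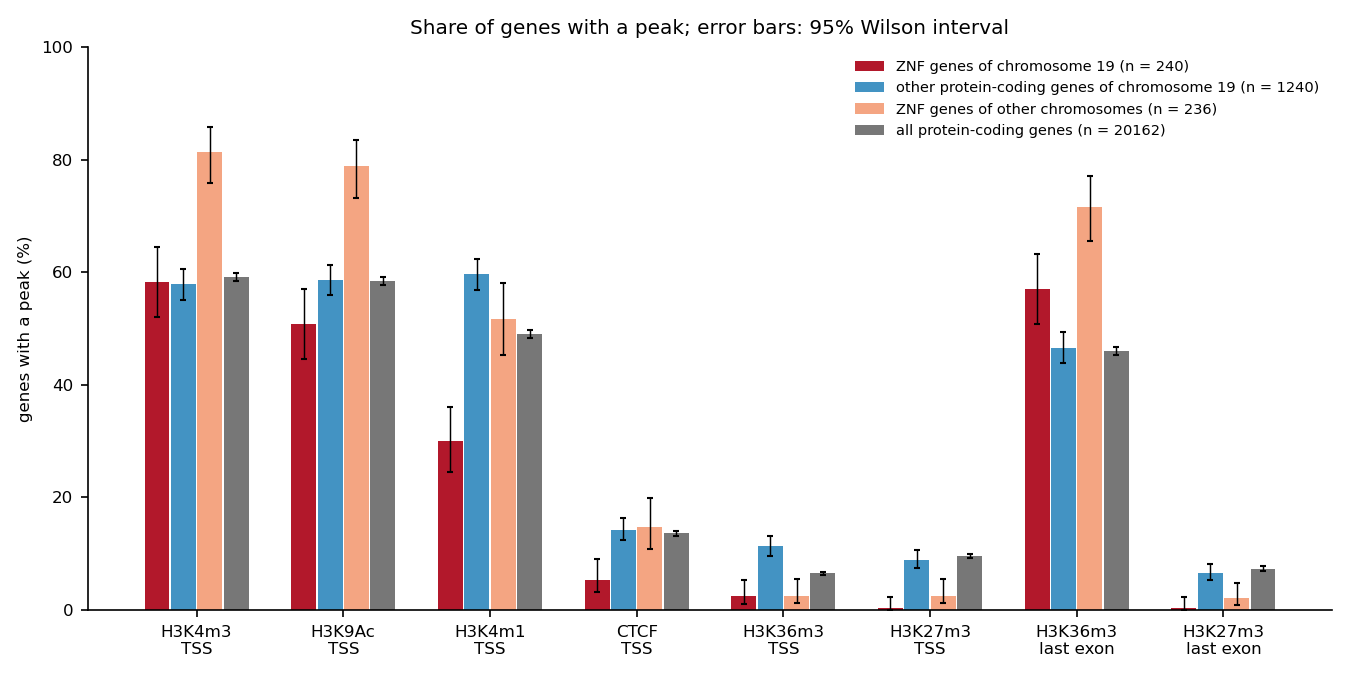
Share of genes with a peak (y axis, %) for each mark at the TSS or over the last exon (x axis), in 4 sets of genes with 95% Wilson intervals. The bars of the 240 ZNF genes of chromosome 19 stand level with all genes for H3K4m3 (58.3% against 59.1%), lower for H3K4m1 (30% against 49.1%) and higher for H3K36m3 over the last exon (57.1% against 46%).

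H3K4m1 and CTCF were scarcer. H3K4m1 (limits of 0.001 and 2) was at the TSS of 72 ZNF genes (30%, interval 24.6 to 36.1%) against 49.1% of all genes, 59.7% of the other genes of chromosome 19 and 51.7% of ZNF genes elsewhere. With all deposited peaks the count was 117 (48.8%, 42.5 to 55%), against 61.2% of all genes. CTCF, under the limits used for H3K4m3, was within reach of 13 TSSs (5.42%, interval 3.19 to 9.05%), where the background was 13.6%. With all deposited CTCF peaks the count was 35. ZNF554 had the highest CTCF fold enrichment (21.2), followed by ZNF580 (15.2) and ZNF576 (12.6).

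H3K36m3 and H3K27m3 were rare at these start sites. The limits of the Methods leave 90 H3K36m3 and 1552 H3K27m3 peaks in the whole genome, so all deposited peaks of these 2 marks (called at a broad cutoff of 0.1) were used, and the counts under the limits stand beside them. On this basis 6 ZNF genes (2.5%, interval 1.15 to 5.35%) had H3K36m3 at the TSS against a background of 6.49%. On other chromosomes 2.54% (1.17 to 5.43%) of ZNF genes had it, about the same share. The 6 genes of chromosome 19 were ZNF875, ZNF577, ZNF865, ZNF580, ZNF581 and ZNF544. With a window of 2000 bp on either side the count was 63. The names of the peaks in the H3K27m3 list follow another scheme than those of the other 5 lists and lack the name of the cell line. The list was used as labelled, which bears on every H3K27m3 value here. H3K27m3 was at the TSS of 1 ZNF gene (0.417%, interval 0.0736 to 2.32%), where the background was 9.6%. On other chromosomes 2.54% of ZNF genes had H3K27m3 there, with an interval (1.17 to 5.43%) that meets that of chromosome 19. Under the limits of the Methods the count on chromosome 19 was 0 for each of these marks. The backgrounds were then 0.298% for H3K36m3 and 1.22% for H3K27m3, low enough that a count of 0 says little.

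The heights of the TSS peaks also differed between sets. Among ZNF genes with H3K4m3 the fold enrichment ran from 6.44 to 33.7 with a median of 17.9, against a median of 22.5 over all genes with the mark. The peaks were narrower, with a median width of 1536 bp against 2061 bp in all genes and 1942 bp in ZNF genes of other chromosomes. For H3K9Ac the median fold enrichment was 10.8 against 13.1 in all genes, and the median width 1827 bp against 3112 bp. Medians for H3K4m1 were close (4.31 against 4.69). Across the 121 ZNF genes with both marks, fold enrichments of H3K4m3 and H3K9Ac went together (Pearson's r = 0.81, Spearman's rho = 0.79). Across the 71 with H3K4m3 and H3K4m1 they did not (r = -0.16, rho = -0.06). These correlations are across genes that share the same libraries, and they are given as a description.

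ZNF544 (chr19:58739960-58788861, plus strand) led the H3K4m3 values with a fold enrichment of 33.7, and it also had H3K9Ac (19.3), H3K4m1 (4.08) and H3K36m3 (5.12) in its TSS window. ZNF584 (chr19:58912871-58943103, plus strand) followed with 32.8 for H3K4m3 and 19.3 for H3K9Ac. ZNF627 (chr19:11670189-11729976, plus strand) reached 32.2 for H3K4m3 and 16.5 for H3K9Ac and had no H3K4m1 peak at its TSS. The highest H3K9Ac value, 20.2, was that of 1 peak shared by the neighbours ZNF580 and ZNF581, whose start sites also lay under a single H3K4m3 peak of 4862 bp (25.6). H3K4m1 was highest at ZNF414 (7.87), ZNF700 (6.47) and ZNF575 (6.11). Sharing of peaks was uncommon: the 140 genes with H3K4m3 lay under 137 distinct peaks.

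**Figure D2:**
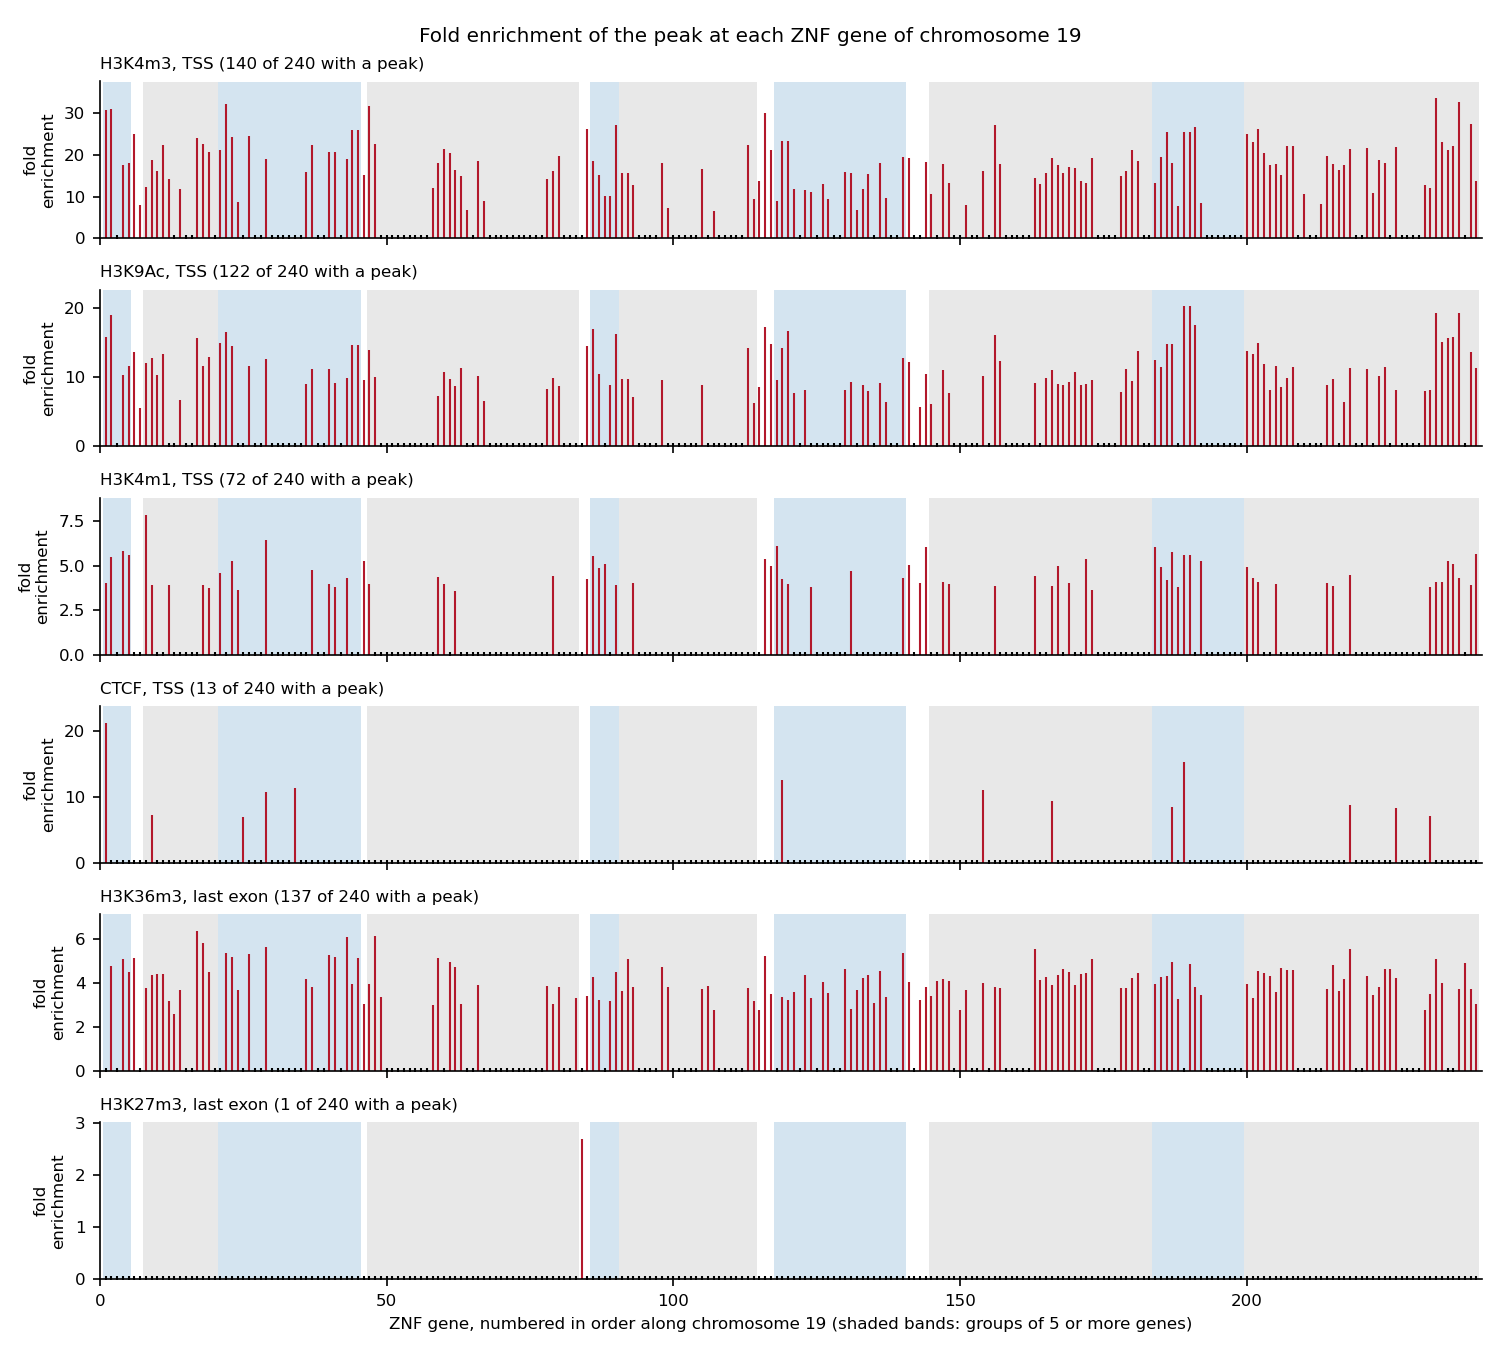
Fold enrichment of the peak (y axis) at each of the 240 ZNF genes, numbered in order along chromosome 19 (x axis), for 4 marks at the TSS and 2 over the last exon. Vertical lines are genes with a peak, ticks at 0 are genes without one, and shaded bands are the 10 groups of 5 or more genes; H3K4m3 at the TSS (140 genes) and H3K36m3 over the last exon (137 genes) fill the same stretches, while H3K27m3 over the last exon shows 1 gene.

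Over the last exon, where the fingers are encoded, H3K36m3 was frequent and H3K27m3 nearly absent. Of the 240 ZNF genes, 137 (57.1%, interval 50.8 to 63.2%) had H3K36m3 over the last exon, against 46% of all genes, 46.6% of the other genes of chromosome 19 and 71.6% of ZNF genes on other chromosomes. Last exons of these genes are long, with a median of 3297 bp against 1381 bp in all genes and 732 bp in the other genes of chromosome 19, and a longer exon has more room for an overlap. The part of exon length in the difference was not tested. With limits of 0.01 on the q-value and 2 on the fold enrichment the count was 126 (52.5%, interval 46.2 to 58.7%) and the share of all genes 34.9%. Under the limits of the Methods 3 ZNF genes were left, where the background was 0.397%.

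Those 3 genes were also the highest by fold enrichment. ZNF121 (chr19:9671005-9695180, minus strand) had 6.39, ZNF14 (chr19:19821281-19843921, minus strand) had 6.16 and ZNF564 (chr19:12636187-12662356, minus strand) had 6.10. The peaks covered the whole last exon of ZNF121 and ZNF14 and 98.3% of that of ZNF564. Among the 137 marked genes the median fold enrichment was 4.07, against 3.48 in all marked genes, 3.67 in the other genes of chromosome 19 and 3.61 in ZNF genes elsewhere. The lowest value was 2.61, in ZNF177. The whole last exon lay under H3K36m3 in 53 genes and at least 50% of it in 105. The median covered share was 74.7% (quartiles 53.0 and 100%), whereas in all marked genes it was 100%. In marked ZNF genes of other chromosomes it was 86.9% (quartiles 45.4 and 100%).

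H3K36m3 covered the 3′ part of these genes more than their end. The peak over the last exon began a median of 9962 bp after the TSS, at 57.1% of the gene, and 2702 bp before the exon itself. It began before the exon in 120 of the 137 genes. It stopped a median of 502 bp short of the gene's end, short of it in 81 genes and beyond it in 56. Along the scaled gene, the share of ZNF genes under H3K36m3 reached 43.3% in 3 bins between 78.8% and 86.2% of the length and had dropped to 26.2% in the last bin. In ZNF genes of other chromosomes the share fell as well. It was highest, 51.7%, in 2 bins at 86.2% and 91.2% of the length, and 37.3% in the last bin. Over all genes the highest share was 35.5%, at 91.2% of the length, and the last bin had 34.5%. The widest H3K36m3 peaks were at ZNF544 (36400 bp), ZNF317 (25326 bp) and ZNF296 (24100 bp), the last of them far wider than the gene (chr19:45574758-45579736).

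**Figure D3:**
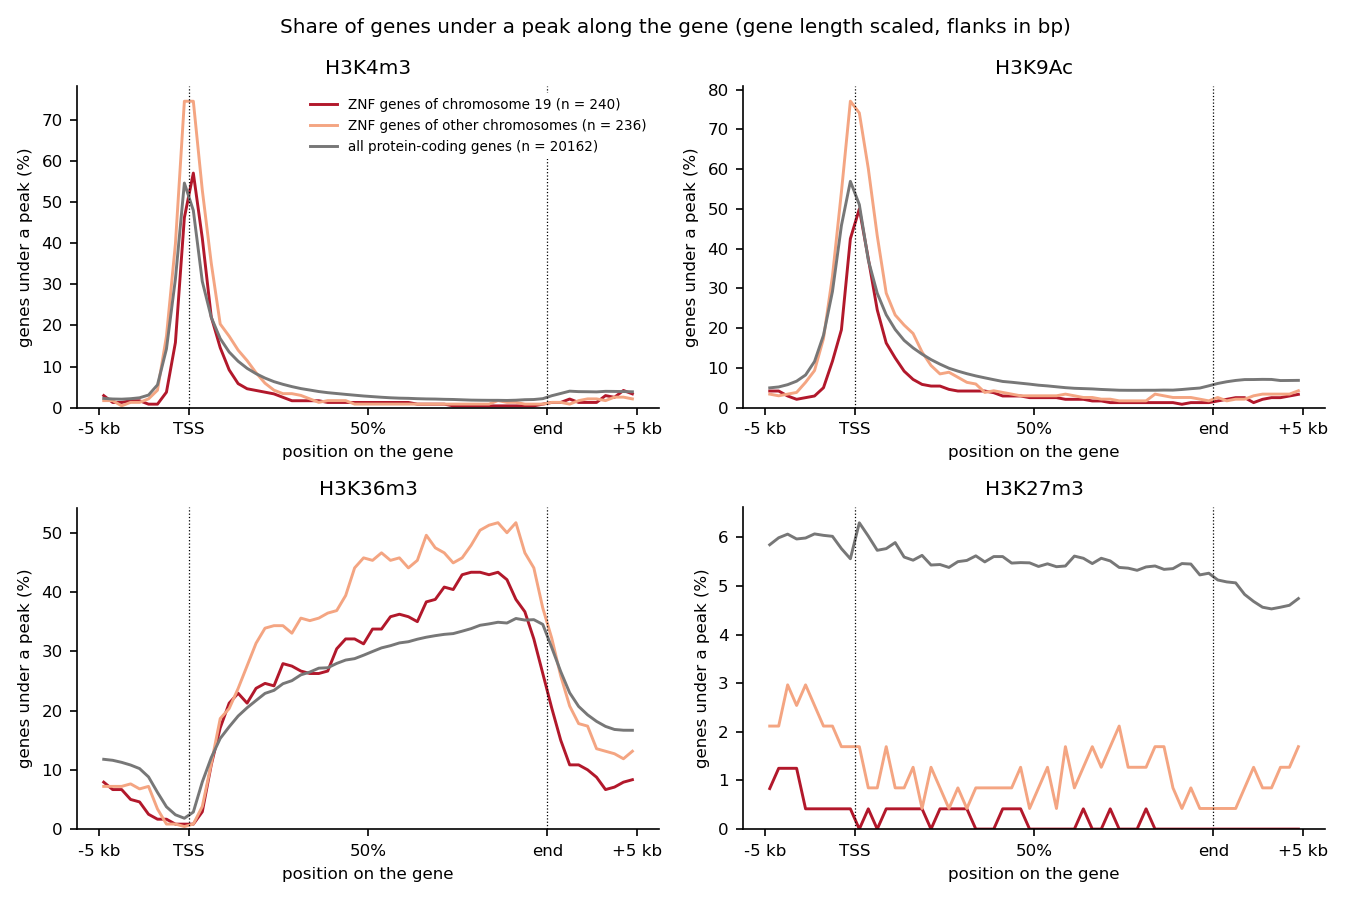
Share of genes under a peak (y axis, %) along the gene (x axis: 5 kb before the TSS, the gene scaled to its length, 5 kb after its end) for 4 marks, in ZNF genes of chromosome 19, ZNF genes of other chromosomes and all protein-coding genes. For the ZNF genes of chromosome 19 H3K36m3 is highest between 78.8% and 86.2% of the gene (43.3%), H3K4m3 just after the TSS (57.1%), and H3K27m3 stays at or under 1.25% throughout.

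H3K27m3 over the last exon was found in 1 ZNF gene (0.417%, interval 0.0736 to 2.32%), against 7.37% of all genes, 6.61% of the other genes of chromosome 19 and 2.12% of ZNF genes elsewhere. Under the limits of the Methods it was found in 0, where the background was 0.803%. The gene was ZNF536 (chr19:30715798-31204493, plus strand), a brain-expressed regulator of neuronal differentiation that lies outside the groups of ZNF genes. A peak of 15254 bp covered its TSS (fold enrichment 3.47, -log10 q-value 2.38), and 26 H3K27m3 peaks together covered 35.1% of the transcript. Its last exon peak had a fold enrichment of 2.69 and covered 8.42% of the exon. ZNF285 was the other ZNF gene with H3K27m3, through 1 narrow peak in the body (fold enrichment 2.60). H3K36m3 and H3K27m3 together over the last exon were found in 0 of the 240 ZNF genes (interval 0 to 1.58%). Over all protein-coding genes they were found together in 29 (0.144%), low enough that a count of 0 says little.

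Inside the body, counted from where the TSS window ends to the end of the transcript, the ZNF genes were marked as follows. H3K36m3 was in the body of 140 (58.3%) with a background of 54.9%, and 3 under the limits of the Methods. H3K27m3 was in 2 (0.833%, interval 0.229 to 2.99%), with a background of 17.7% and 5.08% (2.93 to 8.68%) of ZNF genes elsewhere. H3K4m3 reached into the body of 64 (26.7%), with a background of 47.4%, and H3K9Ac into that of 85 (35.4%), with a background of 55.3%. Nearly all of these were the TSS peak extending downstream, and ZNF324 alone had H3K4m3 or H3K9Ac in the body from a separate peak. H3K4m1 was in 47 bodies (19.6%), where the background was 52.7%, and 11 of these had a peak apart from the TSS. CTCF was in 9 bodies (3.75%), against 33.6% of all genes, and was highest in ZNF653 (11.7), ZNF556 (10.9) and ZNF787 (10.2). In length, the ZNF genes had a median of 20895 bp and all genes 22666 bp.

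H3K4m3 at the start and H3K36m3 at the end nearly always came together in the same ZNF genes. Both were present in 127 genes (52.9%, interval 46.6 to 59.1%) and neither in 90 (37.5%, interval 31.6 to 43.8%). Over all genes the shares were 41.8% with both and 36.7% with neither. Of the 140 genes with H3K4m3, 90.7% (84.8 to 94.5%) had H3K36m3 over the last exon, against 70.7% (69.9 to 71.5%) of all genes with H3K4m3. The share in ZNF genes of other chromosomes, 85.4% (79.7 to 89.7%), has an interval that meets that of chromosome 19. Of the 100 genes without H3K4m3, 10% (5.52 to 17.4%) had it, against 10.3% of all genes without. Where both were present, their fold enrichments had a Pearson's r of 0.44 and a Spearman's rho of 0.47 across the 127 genes, again as a description. H3K4m3, H3K9Ac and H3K4m1 at the TSS and H3K36m3 over the last exon were all present in 58 ZNF genes (24.2%, 19.2 to 30%), against 30.8% of all genes and 41.1% of ZNF genes on other chromosomes.

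The 13 genes with the start mark and not the end mark were ZNF554, ZNF358, ZNF653, ZNF714, ZNF493, ZNF43, ZNF599, ZNF575, ZNF580, ZNF419, ZNF550, ZNF497 and ZNF837. Their H3K4m3 fold enrichment ran from 6.90 in ZNF493 to 30.8 in ZNF554, so they were not only genes near the limit of 5. ZNF714 and ZNF43, without a canonical transcript, are among them, and their last exon is that of another transcript. The 10 genes with H3K36m3 and no H3K4m3 were ZNF177, ZNF506, ZNF254, ZNF875, ZNF233, ZNF114, ZNF577, ZNF615, ZNF814 and ZNF132. Their H3K36m3 ran from 2.61 in ZNF177 to 4.92 in ZNF132. The H3K36m3 peak of ZNF814 is shared with its neighbour ZNF587, which had H3K4m3 (18.2), and 10.8% of the 75-base stretches in the last exon of ZNF814 occur elsewhere. ZNF114 was the ZNF gene with H3K9Ac (5.62) and H3K4m1 (4.02) but no H3K4m3 past the limits.

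H3K4m3 without H3K9Ac occurred at 19 ZNF genes, so that 86.4% (79.8 to 91.1%) of those with H3K4m3 had H3K9Ac, against 97.2% (96.9 to 97.5%) of all genes with H3K4m3. H3K4m1 accompanied H3K4m3 at 71 of 140 (50.7%, 42.5 to 58.9%) against 74.5% in all genes. In ZNF genes of other chromosomes this share was 62.5% (55.5 to 69%), an interval that meets that of chromosome 19. Their share with H3K9Ac was 96.9% (93.4 to 98.6%), which does not meet it. In 5 genes (ZNF426, ZNF20, ZNF114, ZNF350 and ZNF615) a deposited H3K4m3 peak at the TSS did not pass the limits.

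No peak of any mark in any of the regions was found at 85 ZNF genes (35.4%, interval 29.6 to 41.7%), and 76 of these had no deposited peak at all. For the 85, the background was 13.5% of all genes. It was 9.76% (8.23 to 11.5%) of the other genes of chromosome 19 and 12.3% (8.69 to 17.1%) of ZNF genes elsewhere. No background was counted for the 76. In the group from ZNF101 to ZNF254 they were ZNF253, ZNF93, ZNF682, ZNF90, ZNF486, ZNF737, ZNF626, ZNF66, ZNF429, ZNF208, ZNF257, ZNF676, ZNF729, ZNF98, ZNF492, ZNF99, ZNF723, ZNF728, ZNF730, ZNF681 and ZNF726 (21 of 37 genes). From ZNF565 to ZNF573 they were ZNF260, ZNF529, ZNF382, ZNF461, ZNF790, ZNF345, ZNF829, ZNF568, ZNF420, ZNF569, ZNF570, ZNF793, ZNF571 and ZNF540 (14 of 24). From ZNF175 to ZNF331 the 15 of 39 were ZNF350, ZNF432, ZNF841, ZNF836, ZNF610, ZNF880, ZNF528, ZNF534, ZNF578, ZNF415, ZNF347, ZNF665, ZNF677, ZNF813 and ZNF331. From ZNF653 to ZNF791 the 10 of 25 were ZNF439, ZNF69, ZNF763, ZNF433, ZNF878, ZNF844, ZNF625, ZNF563, ZNF442 and ZNF709. The 9 of 41 between ZNF264 and ZNF446 were ZNF772, ZNF773, ZNF549, ZNF154, ZNF671, ZNF418, ZNF256, ZNF606 and ZNF135. The 7 of 16 between ZNF628 and ZNF835 were ZNF582, ZNF583, ZNF667, ZNF471, ZNF470, ZNF71 and ZNF835. The remaining unmarked genes were ZNF560, ZNF426 and ZNF846 between ZNF414 and ZNF846, ZNF404, ZNF155, ZNF223, ZNF284 and ZNF229 between ZNF575 and ZNF180, and ZNF541, which lies outside the groups.

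Along the chromosome the genes formed 21 runs when neighbours with start sites at most 500000 bp apart were joined, and the 10 runs of 5 or more genes held 228 of the 240. The marked share differed between them. The group from ZNF101 to ZNF254 (chr19:19779605-24312770, 37 genes) had H3K4m3 at 14 (37.8%, interval 24.1 to 53.9%) and H3K36m3 over the last exon of 13 (35.1%, 21.8 to 51.2%). The group from ZNF565 to ZNF573 (chr19:36673178-38307940, 24 genes) was as low, with H3K4m3 at 9 (37.5%, 21.2 to 57.3%) and H3K36m3 at 10 (41.7%, 24.5 to 61.2%). The group closest to the end of the long arm, from ZNF264 to ZNF446 (chr19:57702868-58992597, 41 genes), had H3K4m3 at 30 (73.2%, 58.1 to 84.3%) and H3K36m3 at 28 (68.3%, 53 to 80.4%). The interval for H3K4m3 in this group does not meet those of the other 2.

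**Figure D4:**
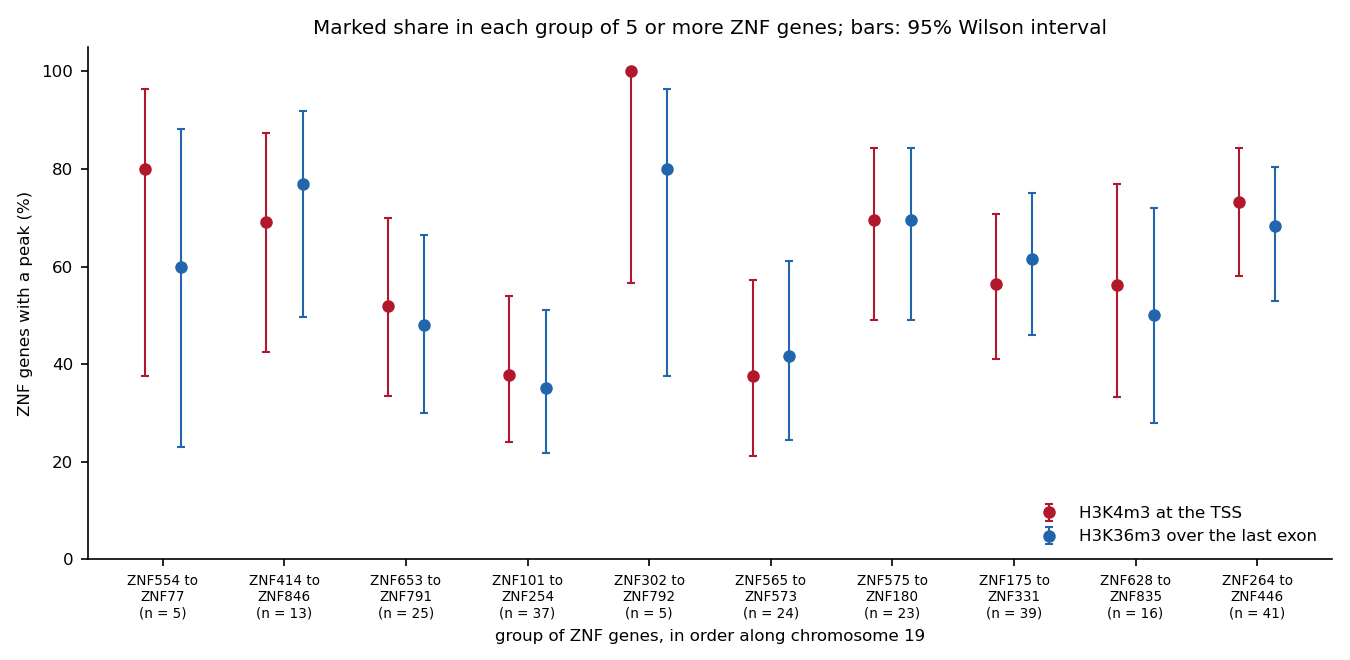
Share of ZNF genes with H3K4m3 at the TSS or H3K36m3 over the last exon (y axis, %) in each of the 10 groups of 5 or more genes in order along chromosome 19 (x axis), with 95% Wilson intervals. The groups from ZNF101 to ZNF254 (37.8% and 35.1%) and from ZNF565 to ZNF573 (37.5% and 41.7%) lie lowest.

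The state of each gene was also compared with that of its neighbour. Of the 219 pairs of adjacent ZNF genes within a run, H3K4m3 was at both in 90, at neither in 61 and at 1 of the pair in 68. The longest unbroken stretch with H3K4m3, 11 genes from ZNF808 to ZNF160, was also the longest with H3K36m3 over the last exon. The longest stretch without H3K4m3 was 10 genes, from ZNF208 to ZNF730, within the group from ZNF101 to ZNF254. With ZNF43, it formed a stretch of 11 genes without H3K36m3. Pairs and stretches were not counted over other genes, and whether neighbours shared a state more often than unrelated genes was not tested.

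The chromosome segments that hold the groups (14.4 Mb of sequence) had fewer peaks than the remaining 41.4 Mb of chromosome 19. CTCF had 5.61 peaks per Mb inside and 22.9 outside, and H3K4m1 9.91 against 37.7. The contrast was smaller for H3K4m3 (11.8 against 18.03), H3K9Ac (10.1 against 17.02) and H3K27m3 (6.93 against 18.6), and smallest for H3K36m3 (25.6 against 29.6). In covered length, H3K36m3 took 12.8% inside and 19.1% outside. The group from ZNF101 to ZNF254 had 0.441 CTCF peaks per Mb and no CTCF peak at a TSS of its 37 genes. Of the 100 H3K27m3 peaks inside these segments, 1 overlapped a ZNF gene (ZNF285), 34 overlapped NLRP genes, 16 the mucin gene MUC16, and 25 no protein-coding gene.

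CpG content around the TSS was similar in ZNF genes with and without H3K4m3, whereas over all genes it differed widely. The CpG observed over expected ratio was measured in the 500 bp on either side of the TSS. In ZNF genes it had a median of 0.720 with H3K4m3 and 0.674 without, while in all genes the medians were 0.799 and 0.318. In ZNF genes of other chromosomes the medians were 0.778 with H3K4m3 and 0.597 without, a smaller gap than in all genes. Of the 191 ZNF genes of chromosome 19 with a ratio of at least 0.6, 67 had no H3K4m3. Between 0.6 and 0.8, H3K4m3 was at 95 of 149 ZNF genes (63.8%, 55.8 to 71%), against 77.9% of all genes, 86% of the other genes of chromosome 19 and 88.2% of ZNF genes elsewhere. At 0.8 and over it was at 29 of 42 (69%, 54 to 80.9%), against 87.9% of all genes. Between 0.4 and 0.6 the intervals met, with 33.3% of ZNF genes (21 to 48.4%) and 37.3% of all genes. Below 0.4 there were 7 ZNF genes, and 2 of them had H3K4m3 (28.6%, 8.22 to 64.1%) against 4.6% of all genes (4.06 to 5.21%), intervals that did not meet, with the higher share in ZNF genes. The share was 6.54% (4.43 to 9.55%) in the other genes of chromosome 19 and 16.7% (4.7 to 44.8%) in ZNF genes elsewhere. Both of these intervals meet that of the 7 genes. Within ZNF genes that had the mark, the H3K4m3 fold enrichment varied little with this ratio (r = 0.21, rho = 0.15, 140 genes).

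**Figure D5:**
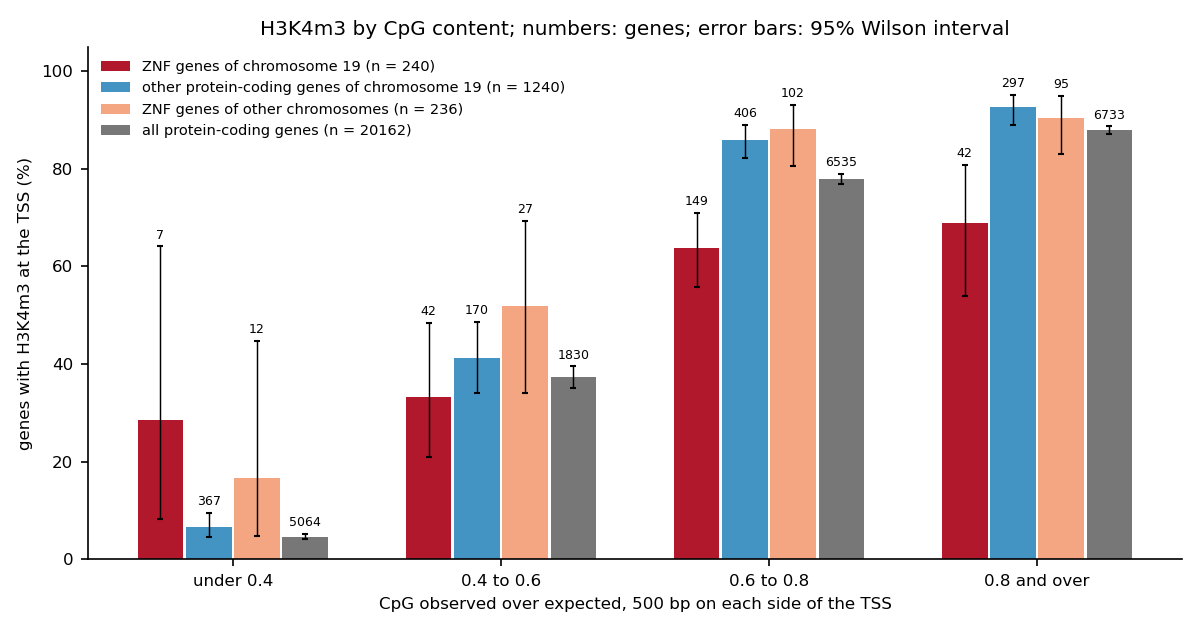
Share of genes with H3K4m3 at the TSS (y axis, %) by the CpG observed over expected ratio around the TSS (x axis), in 4 sets of genes with 95% Wilson intervals and the number of genes above each bar. From 0.6 upward the ZNF genes of chromosome 19 (63.8% and 69%) lie under the other sets (77.9% or more).

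Short promoter motifs were counted on both strands from 250 bases before to 50 after the TSS, and none of the motifs contains another. The ETS sequence CCGGAAGT was in 17.9% of ZNF promoters and 6.09% of all promoters. It was in 14.8% (10.9 to 19.9%) of the promoters of ZNF genes on other chromosomes. Among ZNF genes it was in 20% of those with H3K4m3 and 15% of those without, whereas over all genes the shares were 9.75% and 0.789%. The SP/KLF sequence GGGCGG was in 70% and 66% of the ZNF promoters with and without H3K4m3, and in 78.7% and 35.2% of all promoters. The YY1 sequence AAGATGGC was in 6.25% of ZNF promoters (4.01% of all) and the NRF1 sequence GCATGCGC in 3.75% (4.26% of all). Divergent starts, with another coding gene beginning on the opposite strand within 1000 bp, were present at 5.42% of ZNF genes and 9.93% of all genes.

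Of the 13 CTCF peaks at ZNF start sites, 1 (7.69%, interval 1.37 to 33.3%) held the 12-base CTCF core, against 255 of the 1027 CTCF peaks of chromosome 19 (24.8%). It is the peak of ZNF580, whose nearer edge lies 74 bp from the TSS. The core itself lies at -1786 bp from the TSS, outside the window of 1000 bp. With 8 bases on either side, the core reads as follows on the minus strand (chr19:56150574-56150601), with the core in capitals.
ZNF580: gcctccacCCACCAGATGGCagtagcac
The letters shown are those found at ZNF580. The other 12 peaks have no match to the core by the same search, which says nothing more about binding there. ZNF554, with the highest fold enrichment (21.2), is among them.

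The number of fingers went little with the marks. Fingers were counted by the spacing of cysteines and histidines in the translated coding sequence of 236 genes. ZNF274, whose coding sequence on hg19 is interrupted, and the 3 genes without a canonical transcript were left out. The median was 12.5 fingers in genes with H3K36m3 over the last exon and 12 in genes without. H3K36m3 was present in 9 of 12 genes with up to 5 fingers (75%, 46.8 to 91.1%), 37 of 67 with 6 to 10 (55.2%), 57 of 102 with 11 to 15 (55.9%) and 33 of 55 with 16 or more (60%). ZNF729 had the most, 39 fingers, and no peak of any mark. ZNF428 had the fewest, 1, and carried H3K4m3 (23.3), H3K9Ac (16.6) and H3K36m3 (3.22). Nor did the share of repeated 75-base stretches in the last exon differ much, with a median of 0.171% in genes with H3K36m3 and 0.216% in genes without. Of the 10 genes above 10%, ZNF66, ZNF98 and ZNF492 had no peak, and the others had H3K36m3.

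Among 18 ZNF genes picked for a known role, 4 carried both H3K4m3 and H3K36m3. ZNF91, a repressor of SVA retroelements, had 16.2 for H3K4m3 and 3.06 for H3K36m3. ZNF274, which binds the 3′ ends of other ZNF genes and recruits SETDB1 there, had 12.1 and 3.51, and a CTCF peak of 7.13 within 1000 bp of its TSS. ZNF224, a KRAB repressor, had 15.9 and 4.64, and ZNF675, an inhibitor of TRAF6 signalling, had 19.9 and 3.81. ZNF43 had H3K4m3 (9.02), ZNF177 had H3K36m3, and ZNF536 had H3K27m3 as given above. The remaining 11 had no peak past the limits. They were ZNF93, which represses L1 elements, the imprinted gene ZNF331, ZNF350, known as a partner of BRCA1, ZNF420, known as a regulator of p53, ZNF382, ZNF582, ZNF671 and ZNF154, whose promoters are known to be methylated in carcinomas, and ZNF208, ZNF568 and ZNF569. Of these, ZNF350 had a deposited H3K4m3 peak (5.99) that missed the q-value limit. The share with H3K4m3 (5 of 18) stands beside 58.3% of all the ZNF genes of the chromosome, and the list was not drawn at random.

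The partners of KRAB zinc finger proteins and the enzymes of these marks formed a list of 16 genes, all of which had H3K4m3 at the TSS and H3K36m3 over the last exon. Over all genes, 41.8% had both. H3K9Ac was at the TSS of 14 of the 16, the exceptions being ATF7IP and ATRX, and H3K27m3 at none. The backgrounds were 58.5% for H3K9Ac and 9.6% for H3K27m3, and the list was not drawn at random. TRIM28, itself on chromosome 19, had 25.6 for H3K4m3 and 5.40 for H3K36m3, SETDB1 had 12.1 and 3.59, and the heterochromatin protein gene CBX3 had 28.1 and 6.09. SETD2, which places H3K36m3, had 36.7 for H3K4m3, and EZH2, which places H3K27m3, had 39.7 and 4.27. The HUSH complex genes TASOR and MPHOSPH8 had 26.1 and 20.3 for H3K4m3.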

How the data were processed

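Peak lists of 6 PIXUL-ChIP-seq libraries of HCT116 cells were analysed, 1 library per mark. The labels list 7 libraries, and H3K27Ac was not analysed here. The authors aligned reads to hg19 with BWA 0.7.12, and the Methods name MACS2 with a broad cutoff of 0.1. The submitters' processing notes also list MACS 1.4.2, SAMtools 0.1.19 and bcl2fastq 2.20.0.442. The fold enrichment that the authors deposited is a linear ratio over the peak caller's background. The −log10 p-values and −log10 q-values deposited with it are values of the whole peak. Peaks were called per library, and depth, which sets how many peaks are called, is unknown. The columns that belong to no mapped sample numbered 0.

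Genes came from GENCODE 44 placed on hg19. A gene had a mark where a peak overlapped the region by at least 1 bp, and the peak with the highest fold enrichment gave its value. H3K4m1, H3K4m3, H3K9Ac and CTCF peaks had to pass the limits of the Methods, and all deposited H3K36m3 and H3K27m3 peaks were used. Fingers were counted from the annotated coding sequence on hg19 and not from RefSeq proteins as designed. Shares carry 95% Wilson intervals for counting error only. Overlaps were tested on simulated peaks and checked against bedtools 2.31.1, with 0 of 6 lists differing. The work used samtools 1.23.1 and Python 3.11.15 with pandas 2.3.3, scipy 1.17.1, pyfaidx 0.9.0.4, numpy 2.4.6 and matplotlib 3.10.9.

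The genes and lists were chosen with earlier results of these data known. Genes named are, for each mark and region, the 3 with the highest fold enrichment, those with the widest H3K36m3 and H3K27m3 peaks, with no peak, and with the most and fewest fingers, and the lists of known roles, pathway genes and cell type markers. Genes listed by which marks they combine, runs of neighbours and the genes with repeated last exons were named after their values were seen. Alternatives were other peak limits, TSS windows, transcripts and overlaps.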

Additional observations from a re-analysis of the deposited data

How the results depend on the processing

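Of 53 alternatives over 15 counts of ZNF genes, 35 gave a count within 1.5 times the reported one and 18 did not. No paired analysis was possible because there was 1 library per mark, and for the same reason no replicate could be left out. With all deposited peaks, H3K4m1 was at 117 start sites and in 73 bodies, and CTCF at 35 and in 25. Under the limits of the Methods, H3K36m3 was at the TSS of 0 genes, in the body of 3 and over the last exon of 3, all 3 of them with H3K4m3, and H3K27m3 was at 0, in 0 and over 0. With limits of 0.01 on the q-value and 2 on the fold enrichment, H3K27m3 was in the body of 1 gene and over the last exon of 0, and it covered at least 50% of the last exon in 0. The count of H3K36m3 at the TSS was 2 with a window of 500 bp on each side, 63 with 2000 bp and 51 with the TSS of any protein-coding transcript, which gave 2 for H3K27m3. A wider window or a further start site reaches into the body, where H3K36m3 lies. The counts of H3K4m3 and H3K9Ac stayed within 1.5 times under each alternative run. Unknown depth limits every count of genes without a peak.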
